A study of Mus musculus with 30 samples.

Results

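The 4 vehicle-treated libraries of an auxin washout experiment were compared between the mouse embryonic stem cell lines named 10E and 11D, with replicates 1 and 2 of each line, out of 30 libraries in the series. All 4 are nascent RNA libraries of E14 cells in which SPT16 carries a V5 epitope and an auxin-inducible degron (AID) at its C terminus. The vehicle cells received 0.1% ethanol (EtOH) for 12 h, and then fresh medium without it for 24 h. Libraries of the same lines that received 500 nM of the auxin 3-indole-acetic acid (IAA) for 12 h before the same 24 h in fresh medium served for comparison, with 2 per line. All cells grew without feeders in serum with LIF and inhibitors of GSK3 and MEK. The lines were targeted independently, so each stands for 1 targeting event. The sample titles call them Clone1 and Clone2, the columns of counts call them 10E and 11D, and the labels do not say which is which. Nothing states that replicates were separate cultures, and the p-values cover only how these libraries vary, which may be technical.

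FACT is a histone chaperone made of SPT16 and SSRP1 that removes histones in front of RNA polymerase and puts them back behind it. Auxin marks an AID-tagged protein for destruction, and ethanol is its vehicle. TT-seq labels RNA with 4-thiouridine for a short pulse, here 5 min, so its reads come largely from RNA in the making, introns included. Counts were of read pairs over whole gene bodies, and levels are given as CPM, the count scaled to library size. CPM is not corrected for gene length and is compared here only between libraries for the same gene.

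The EtOH libraries held 11068135 and 16506431 counted pairs for 10E and 15273270 and 16554314 for 11D, and 6.0% to 9.51% of the pairs fell in loci that resemble ribosomal RNA. In the IAA libraries that share was 22.6% to 31.3% and the totals were 6547992 to 10978586. The cell type was as labelled by its markers: 9 of 10 embryonic stem cell markers averaged at least 1 CPM, with a summed level of 2444 to 4136 CPM in 10E and 2448 to 3744 CPM in 11D. Sox2 was listed at 0 in all 4 libraries. It lies on chromosome 3 (34650405 to 34652461) inside Sox2ot on the same strand, and Sox2ot itself had 71.6 to 125 CPM, so the level of Sox2 cannot be read from this table. Summed levels of the other marker lists were at most 10.7 CPM for primitive endoderm, 10.7 CPM for trophoblast, 5.73 CPM for mesoderm, 1.32 CPM for fibroblasts or feeders and 0.141 CPM for neural cells. The neural sum rests on Pax6, since Sox1, Olig2 and Tubb3 were listed at 0. Sox1 and Tubb3 overlap other genes on their strand (Sox1ot and Galnt2l), so like Sox2 they cannot be read here.

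The line names of the EtOH libraries did not follow several loci that separated the lines after IAA. Genes of the imprinted Dlk1-Dio3 domain on chromosome 12 were named here after their values were seen. Meg3, its maternally expressed noncoding RNA, had 2.48 and 136 CPM in 10E replicates 1 and 2, and 2.49 and 194 CPM in 11D replicates 1 and 2. In the IAA libraries Meg3 had 4.89 and 3.56 CPM in 10E and 99.5 and 92.6 CPM in 11D. The EtOH libraries therefore divided by replicate number and the IAA libraries by line. Rian, a host of small nucleolar RNAs in that domain, had 1.86 and 150 CPM in 10E and 1.55 and 204 CPM in 11D. Plagl1, an imprinted zinc finger gene on chromosome 10, had 29.96 and 149 CPM in 10E and 35.0 and 171 CPM in 11D after EtOH. After IAA, Plagl1 had 30.5 and 32.0 CPM in 10E and 185 and 169 CPM in 11D, the same division by line as Meg3. Spry4, a feedback inhibitor of ERK signalling, ran the other way. It had 28.4 and 5.41 CPM in 10E and 24.9 and 3.33 CPM in 11D after EtOH, against 152 and 139 CPM in 10E and 16.3 and 23.5 CPM in 11D after IAA.

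Chromosome 8 divided the libraries in the same way. Over its 600 genes with a mean of at least 5 CPM, the median deviation from the other autosomes was -0.16 and 0.29 (log2) in 10E replicates 1 and 2 and -0.26 and 0.22 in 11D replicates 1 and 2 after EtOH. After IAA it was -0.28 and -0.32 in 10E and 0.23 and 0.30 in 11D. No other autosome deviated by more than 0.17 in any library. Of the 136 genes called lower in 10E after IAA and tested after EtOH, 127 were lower in both EtOH libraries of replicate 1 than in both of replicate 2, and 0 were lower in both of 10E than in both of 11D. Of the 164 called higher in 10E after IAA and tested after EtOH, 100 were higher in both of replicate 1 and 9 in both of 10E. Over all 16800 genes tested the corresponding shares were 29.0% and 15.2% for lower levels and 26.5% and 17.6% for higher levels. At Meg3, Rian, Plagl1 and chromosome 8 the 10E replicate 2 library was like the 11D IAA libraries, and the 11D replicate 1 library like the 10E IAA libraries. Spry4 divided by replicate number too, but its level in 11D replicate 1 was near that of the 11D IAA libraries. Every difference below is therefore one between libraries labelled 10E and libraries labelled 11D, and whether the labels name the cells was not tested.

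**Figure D1:**
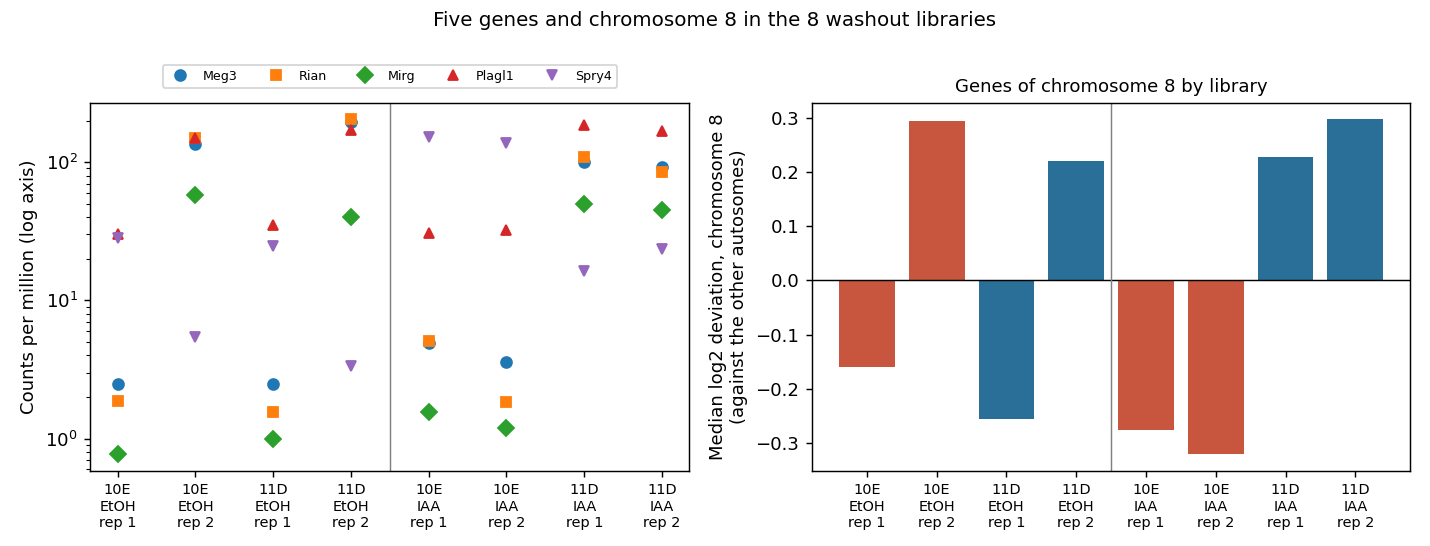
Left, CPM (log axis) of Meg3, Rian, Mirg, Plagl1 and Spry4 in the 8 washout libraries, 1 point per library, with EtOH left and IAA right of the grey line. Right, the median log2 deviation of 600 genes of chromosome 8 from the other autosomes, with 10E in red and 11D in blue. In EtOH the levels go by replicate number, and in IAA they go by line.

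Whole libraries showed the same order by the share of genes that differed by more than 2-fold. Among 14657 genes, 2.65% and 3.42% differed by more than 2-fold between the EtOH libraries of 1 replicate number, replicates 1 and 2 respectively. Between the replicates of 1 line the share was 10.5% for 10E and 11.7% for 11D. By the chi-square of the counts per degree of freedom the order was less clear. It was 13.4 and 44.4 between lines in replicates 1 and 2, and 35.9 and 55.4 between the replicates of 10E and 11D. The comparison of 10E with 11D was made within replicate numbers, with the number as a block, by edgeR's quasi-likelihood test with p-values adjusted by Benjamini and Hochberg's method (false discovery rate, FDR, below 0.05). Of 16800 genes tested, 1912 were called (11.4%), of which 473 were higher (2.82%) and 1439 lower (8.57%) in libraries labelled 10E. Without the block, 0 genes were called in either direction by edgeR, and 286 had an unadjusted p under 0.05. Fits over all 8 washout libraries, with the number as a block across or within treatments, also called 0 genes, with 544 and 1182 at an unadjusted p under 0.05. DESeq2 with the block called 26 genes higher and 545 lower, all of them among the edgeR calls and in the same direction. It gave an adjusted p for 7354 genes, against 16800 in edgeR, so the 2 totals do not cover the same genes. With 4 libraries the blocked fit leaves 1 residual degree of freedom, so its calls rest on a dispersion shared across genes. "Called" below refers to this fit.

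**Figure D2:**
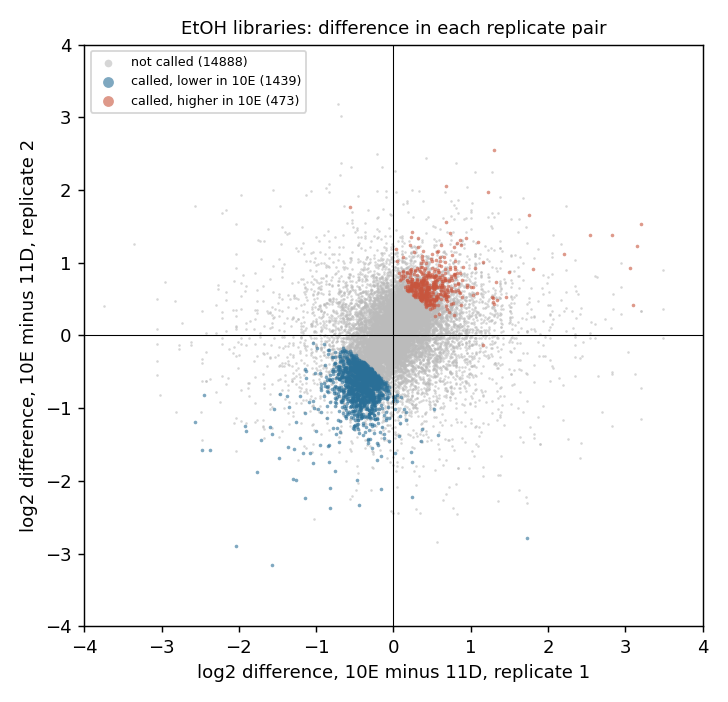
The log2 difference of each tested gene, 10E minus 11D, in replicate 1 (horizontal) and replicate 2 (vertical) of the EtOH libraries, with called genes in colour. Of the 1912 called genes, 1889 had the same sign in both pairs, and 80 differed by more than 1 in the fit.

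The differences were small. The median called gene differed by 0.55 in absolute log2, and 80 of the 1912 differed by more than 1, of which 21 were higher and 59 lower in 10E. The sign was the same in both replicate pairs for 98.8% of called genes and for 67.8% of all tested genes. The lines did not overlap in 1384 called genes, against 32.8% of all genes tested. The calls were made from these same pairs, so both figures for called genes follow in part from the selection. With a further limit of 1.5-fold, 189 genes were higher and 618 lower. In bulk libraries like these, fewer cells of a kind and less RNA per cell cannot be told apart.

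The FACT genes were read first, since SPT16 is the tagged protein. Supt16 (chromosome 14, 52160414 to 52197416), which encodes SPT16, had 57.0 and 76.6 CPM in 10E and 85.8 and 90.0 CPM in 11D. Both 10E libraries lay below both 11D libraries, with a log2 difference of -0.42 ± 0.14 (SE) and an FDR of 0.0301. At a like size Supt16 was not called with DESeq2 (FDR 0.121), with a mean of at least 1 CPM (0.0502) or over all 8 libraries (0.879). In the IAA libraries the difference was 0.30 in the other direction and was not called, with an FDR of 0.646. Ssrp1, the partner subunit, had 39.9 and 39.3 CPM in 10E and 38.9 and 32.2 CPM in 11D, and did not pass the test (log2 difference 0.15, FDR 0.575). The table counts transcripts of the whole gene and does not show the amount of SPT16 protein.

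The core pluripotency factors did not pass the test: of 6 listed, 5 were tested and 0 called, against 11.4% of all genes. With gene length offsets 1 of the 5 was called higher and 1 lower, against 5.2% and 6.88% of all genes. Pou5f1, which encodes OCT4, had 151 and 113 CPM in 10E and 121 and 97.9 CPM in 11D, with overlapping lines and an FDR of 0.275. Nanog, another core factor, had 147 and 129 CPM against 144 and 137 CPM (FDR 0.896). Esrrb, an orphan nuclear receptor of the naive state, had 2403 and 1285 CPM in 10E and 2134 and 1190 CPM in 11D, so that its levels followed the replicate number and not the line. Sall4, a zinc finger factor, did likewise with 277 and 135 CPM against 241 and 110 CPM. Of 34 tested genes of the wider naive network, 3 were called higher (8.82%, against 2.82% of all genes) and 1 lower (2.94%, against 8.57%). The lower gene, Tet2, was not called with gene length offsets (FDR 0.220). In that fit 4 of the 34 were called higher and 2 lower. Klf2, a Krüppel-like factor, had 131 and 193 CPM in 10E and 89.6 and 121 CPM in 11D, without overlap (log2 difference 0.60, FDR 0.000969). Fgf4, the growth factor that acts through ERK in these cells, had 122 and 152 CPM against 99.4 and 92.3 CPM (0.49, FDR 0.00960). Socs3, the feedback inhibitor of LIF signalling, was higher at 8.59 and 6.83 CPM against 5.37 and 3.75 CPM (0.76, FDR 0.0277). In the list of LIF and STAT3 genes, Socs3 was joined by the kinase genes Pim1 and Pim3, so that 3 of 14 were higher (21.4%, against 2.82% of all genes) and 0 lower. With gene length offsets 1 of the 14 was called, and Socs3 (FDR 0.134) and Pim1 (0.279) were not.

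The direction of the difference went with gene length. The genes tested were divided by length into 5 equal groups of 3360. In the shortest group, of up to 6.63 kb, the median log2 difference was 0.26, with 6.22% called higher and 0.506% called lower in 10E. In the longest group, of 70.02 kb and more, the median was -0.26, with 0.327% called higher and 25.7% called lower. The medians of the groups between them fell in order of length. Genes called higher had a median length of 7.60 kb and a median exonic share of 40.9%, against 84.7 kb and 9.04% for genes called lower and 20.1 kb and 18.4% for genes not called. The slope was seen in both pairs but was steeper in replicate 2. Its median went from 0.36 to -0.37 there, and from 0.20 to -0.10 in replicate 1. In the IAA libraries it ran the other way in replicate 2, from -0.50 to 0.58, and was -0.04 to 0.04 in replicate 1. When each library's smooth trend of level with gene length was removed, the medians of the 5 groups were between -0.01 and 0.03. That fit called 874 genes higher (5.2%) and 1156 lower (6.88%), and 1082 of the 1912 calls were shared with the same direction. Exonic share moved with it: the median difference was 0.24 in the group of genes with the highest exonic share and -0.19 in that with the lowest. The part of mature RNA in these differences was not tested.

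**Figure D3:**
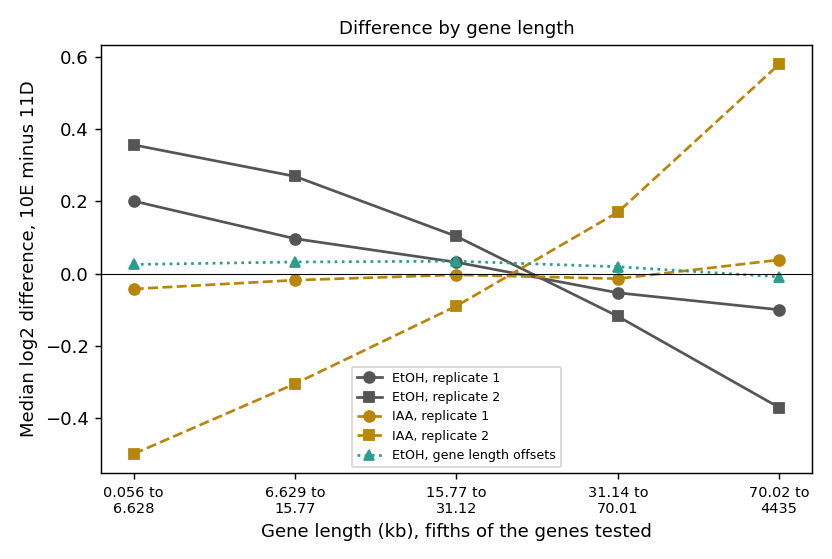
Median log2 difference, 10E minus 11D, in 5 equal groups of tested genes ordered by gene length (kb), for each replicate pair of the EtOH and IAA libraries and for the EtOH fit with gene length offsets. The EtOH medians fall with length, the IAA medians of replicate 2 rise, and the offsets leave medians between -0.01 and 0.03.

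Of the named genes with the largest differences, the 15 highest in 10E had a median length of 3.66 kb (0.339 to 47.4 kb) and the 15 lowest 136 kb (4.33 to 1139 kb). Among the 15 highest, the log2 difference was 0.95 to 1.89 and the mean level was 1.27 to 16.5 CPM. Of the 15, 11 did not overlap between the lines, against 32.8% of all genes tested. They were picked from these same libraries by FDR, sign and size, so that count follows in part from the choice. Rpp25l, which encodes a protein like the RNase P subunit RPP25, had 11.5 and 9.95 CPM in 10E and 6.64 and 4.22 CPM in 11D (1.00 ± 0.23, FDR 0.000762). Arc, an activity-regulated cytoskeletal gene, had 16.8 and 27.0 CPM against 8.08 and 14.2 CPM (0.97 ± 0.19, FDR 4.09e-05). Both libraries labelled 10E were above both labelled 11D for these genes. Cebpa, a transcription factor of fat and blood cells, led the list with 1.89 ± 0.58. Its counts were 4 and 82 pairs in 10E and 3 and 18 in 11D, so the lines overlapped and replicate 2 carried the difference. The others were Nmur1, Dusp28, Plin5, Osgin1, Syngr3, Tnfrsf12a, Psd4, Fos, Nupr1l, Syp, Hist1h2al and Fzd2. With gene length offsets 10 of the 15 stayed called, where 5.2% of all genes were called higher. Dusp28, Syngr3, Tnfrsf12a, Fos and Fzd2 did not, with FDRs of 0.0564 to 0.120. Syngr3 and Psd4 were not called with RLE scaling (FDRs of 0.0620 and 0.0674). Hist1h2al belongs to a family of near-identical histone genes and its count is uncertain. Of the 12 tested in the IAA libraries, 0 were called and 2 had the same sign there.

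The 15 lowest named genes ran from -1.93 to -1.15, with mean levels of 1.123 to 22.5 CPM, and 5 of 15 did not overlap between the lines, a share near the 32.8% of all genes tested. Eda, which encodes the ligand ectodysplasin A, had 6.35 and 18.5 CPM in 10E and 12.3 and 52.6 CPM in 11D (-1.30 ± 0.18, FDR 5.52e-09). Zbbx, a zinc finger B-box gene, had 6.58 and 8.48 CPM against 11.2 and 30.9 CPM (-1.40 ± 0.20, FDR 1.62e-08). Tarm1, an immune receptor gene, had 1.47 and 3.25 CPM against 2.66 and 17.3 CPM (-1.93 ± 0.28, FDR 3.34e-08). In each of them 11D replicate 2 stood highest. The same library stood apart in Nox1, an NADPH oxidase gene, at 8.20 CPM against 1.47 to 1.83 CPM in the other libraries. Sgcz, a sarcoglycan gene of chromosome 8, had 1.39 and 23.6 CPM in 10E and 3.43 and 53.9 CPM in 11D (-1.22 ± 0.20). It followed both the line name and, more strongly, the replicate number, and it was called lower in 10E in the IAA libraries too (-2.66, FDR 0.00458). The others included Fgf7, Dach2, Olfr836, Olfr837, Abi3bp, Snhg14, Kcnj3, Zfpm2 and Rsf1os1. With gene length offsets 13 of the 15 stayed called, where 6.88% of all genes were called lower. Fgf7 (FDR 0.0645) and Abi3bp (FDR 0.126) did not. Olfr836 and Olfr837 are neighbouring olfactory receptor genes whose reads can be shared, so their values are uncertain. Of the 11 tested in the IAA libraries, 8 had the same sign and Sgcz was called.

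Immediate early genes, which are transcribed within minutes of a growth or stress signal, gave the highest share of calls in 1 direction among lists of 10 or more tested genes. Of 20 tested, 9 were called higher in 10E (45%, against 2.82% of all genes), 0 lower, and 19 had a difference above 0. DESeq2 with the block called 1 of the 20, and 571 genes in all. Over the list the lines did not overlap in 4 of the 20, against 32.8% of all genes tested. The list median was 0.52, against 0.04 over all genes tested. Its median gene length was 3.71 kb. In the length group of up to 6.63 kb, 6.22% were called higher. With gene length offsets the list median was 0.31 and 5 members were called higher, against 5.2% of all genes. Fos, Klf10, Ccn2 and Srf lost their calls there, with FDRs of 0.107 to 0.139. Jund, a JUN-family transcription factor gene, had 15.6 and 31.4 CPM in 10E and 7.58 and 19.8 CPM in 11D (0.81 ± 0.18, FDR 0.000498). Ier2 had 28.7 and 57.5 CPM against 18.5 and 34.8 CPM (0.67 ± 0.15, FDR 0.000757). Each was higher in 10E within a replicate number and higher in replicate 2 within a line, and the lines overlapped. The same order held for Fos, the founding AP-1 gene, with 1.86 and 4.68 CPM against 0.608 and 2.53 CPM (1.11 ± 0.38, FDR 0.0352). The call of Fos was also lost with RLE scaling (FDR 0.0555), without a filter on low counts (0.0726) and with a mean of at least 1 CPM (0.0544). The order held for Btg2, an antiproliferative gene that p53 also targets, with 27.9 and 85.9 CPM against 21.5 and 50.8 CPM (0.57, FDR 0.00293). It also held for Dusp1, a MAP kinase phosphatase gene, with 27.9 and 73.5 CPM against 21.9 and 44.2 CPM (0.54, FDR 0.00592). Atf3, a stress-induced factor, and Ccn2, a secreted matrix protein gene, were called with 0.57 and 0.68. In the IAA libraries the list median was -0.45, with 1 of 20 called higher and 0 lower.

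Promoters of called immediate early genes are shown because 2 elements are known to drive this class, the CArG box bound by SRF and the cyclic AMP element. RefSeq promoters (GRCm38.p6, 250 bases before to 50 after the start) matched 6 of the 9 called genes. The CArG box was searched as CC, then 6 letters that are each A or T, then GG. The cyclic AMP element was searched as TGACGTCA. Both patterns read the same on either strand, and the matches in these promoters did not overlap. A CArG box was in 1 of the 6 promoters, that of Srf, and in 1.57% of all 27025 promoters. The cyclic AMP element was in 2 of the 6, those of Dusp1 and Btg2, and in 1.88% of all promoters. Among the 12013 promoters of tested genes the shares were 1.27% for the CArG box and 3.07% for the cyclic AMP element. Among the 15 promoters of tested immediate early genes, called or not, each element was in 2 (13.3%). The CArG box was there in Srf and in Zfp36, which was not called. Capitals mark the matches in the sequences, which lie on the minus strand at chr17:26508423-26508722 (Dusp1), chr1:134079106-134079405 (Btg2) and chr17:46556113-46556412 (Srf).
Dusp1: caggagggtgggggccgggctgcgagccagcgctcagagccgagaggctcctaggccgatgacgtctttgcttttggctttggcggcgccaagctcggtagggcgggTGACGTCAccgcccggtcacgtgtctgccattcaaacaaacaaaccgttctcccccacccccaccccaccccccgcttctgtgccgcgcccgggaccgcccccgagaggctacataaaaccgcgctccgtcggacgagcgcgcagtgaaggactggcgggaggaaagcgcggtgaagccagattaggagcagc
Btg2: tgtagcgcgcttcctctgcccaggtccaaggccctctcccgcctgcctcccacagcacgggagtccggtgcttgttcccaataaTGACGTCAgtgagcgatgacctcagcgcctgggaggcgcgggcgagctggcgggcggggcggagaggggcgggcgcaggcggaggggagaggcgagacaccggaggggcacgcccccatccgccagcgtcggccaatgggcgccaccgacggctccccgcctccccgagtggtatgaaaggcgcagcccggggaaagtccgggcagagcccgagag
Srf: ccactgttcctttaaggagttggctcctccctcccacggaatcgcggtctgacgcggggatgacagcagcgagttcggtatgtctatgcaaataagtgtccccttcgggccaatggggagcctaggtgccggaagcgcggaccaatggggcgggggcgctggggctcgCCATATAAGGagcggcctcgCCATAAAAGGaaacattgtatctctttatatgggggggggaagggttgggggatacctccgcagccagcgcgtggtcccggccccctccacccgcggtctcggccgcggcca
Srf, whose product binds CArG boxes and whose own promoter holds 2, was among the called genes, with a log2 difference of 0.49 and an FDR of 0.0333. A match describes these letters only.

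Stress and metabolic lists held calls in 1 or both directions, to be read against 2.82% of all genes called higher and 8.57% lower. Of 23 tested genes of the integrated stress response, 4 were higher (17.4%) and 0 lower. With gene length offsets 4 were called higher and 0 lower, against 5.2% and 6.88% of all genes. Ppp1r15a, which encodes the phosphatase subunit GADD34, had 30.03 and 51.1 CPM in 10E and 23.2 and 26.4 CPM in 11D, without overlap (0.66, FDR 0.000977). Atf4, the transcription factor of that response, had 63.9 and 86.1 CPM against 54.6 and 55.5 CPM (0.42, FDR 0.0326), but was not called with gene length offsets (0.17, FDR 0.362). Of 28 tested hypoxia and glycolysis genes, 4 were higher (14.3%) and 0 lower, Vegfa, Aldoa, Gapdh and Slc16a3, at 0.44 to 0.51. Gapdh fell to 0.20 with gene length offsets and was not called there (FDR 0.203). In that fit 9 of the 28 were called higher and 0 lower. The p53 targets were called in both directions, 5 higher (20%) and 3 lower (12%) of 25. The cell cycle inhibitor Cdkn1a was higher with 184 and 247 CPM against 141 and 150 CPM. Sesn1, a much longer gene of 98.5 kb, was lower with 44.1 and 66.6 CPM against 61.3 and 105 CPM. Sesn1 stayed called lower with gene length offsets (FDR 0.0232), where 3 members of the list were called higher and 4 lower. Of 26 tested genes of sterol and lipid synthesis, 2 were higher (7.69%) and 1 lower (3.85%). Fasn, the fatty acid synthase gene of 18.7 kb, was higher (0.56), and Acaca, the acetyl-CoA carboxylase gene of 272 kb, was lower (-0.57). With gene length offsets Acaca was not called (-0.29, FDR 0.0611) and Fasn stayed called higher (0.50, FDR 0.000321). In that fit 6 of the 26 were called higher and 0 lower.

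Polycomb genes were called in both directions, and those lower in 10E included Suz12 and Ezh2 of PRC2, the complex that methylates histone H3. Eed, its other core subunit, was not called (-0.36, FDR 0.0724). Of 28 tested, 6 were lower (21.4%, against 8.57% of all genes) and 3 higher (10.7%, against 2.82%). The list's median length was 42.0 kb, in a length group with 12.9% called lower. Suz12, the scaffold of PRC2, had 87.8 and 89.1 CPM in 10E and 130 and 167 CPM in 11D (-0.75 ± 0.14, FDR 2.41e-05). Mtf2, a PRC2 accessory subunit, had 167 and 155 CPM against 220 and 293 CPM (-0.67 ± 0.14, FDR 0.000167). Ezh2, its methyltransferase, had 72.3 and 75.9 CPM against 94.9 and 113 CPM (-0.50 ± 0.14, FDR 0.00745). The 10E libraries were alike and below both 11D libraries in all 3 genes. Over the list the lines did not overlap in 12 of the 28, against 32.8% of all genes tested. Rybp and Phc3, of PRC1, and Jarid2, of PRC2, were also lower, and Epop and Cbx2 were among those higher. With gene length offsets Suz12, Mtf2, Ezh2 and Rybp remained called lower and Jarid2 and Phc3 did not, with FDRs of 0.437 and 0.0526. After IAA, Suz12 and Mtf2 differed by 0.65 and 0.77 in the other direction, and 0 genes of the list were called there.

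Histone chaperones and elongation factors, the functional neighbours of FACT, gave 5 calls among 25 tested, all lower in 10E (20%, against 8.57% of all genes). The list's median length was 34.6 kb, in a length group with 12.9% called lower. Iws1, a partner of the elongation factor SPT6, had 40.1 and 51.1 CPM in 10E and 55.4 and 81.2 CPM in 11D (-0.59, FDR 0.00140). Cdc73, a subunit of the PAF complex, had 77.0 and 106 CPM against 108 and 175 CPM (-0.63, FDR 0.000552). Ubn2, of the HIRA chaperone complex, Atrx, a remodeller that works with DAXX, and Chd2, another remodeller, differed by -0.64, -0.47 and -0.39. In these 5 genes the lines did not overlap. Over the list they did not overlap in 12 of the 25, against 32.8% of all genes tested. Atrx and Chd2 were not called with gene length offsets, with FDRs of 0.174 and 0.404.

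**Figure D4:**
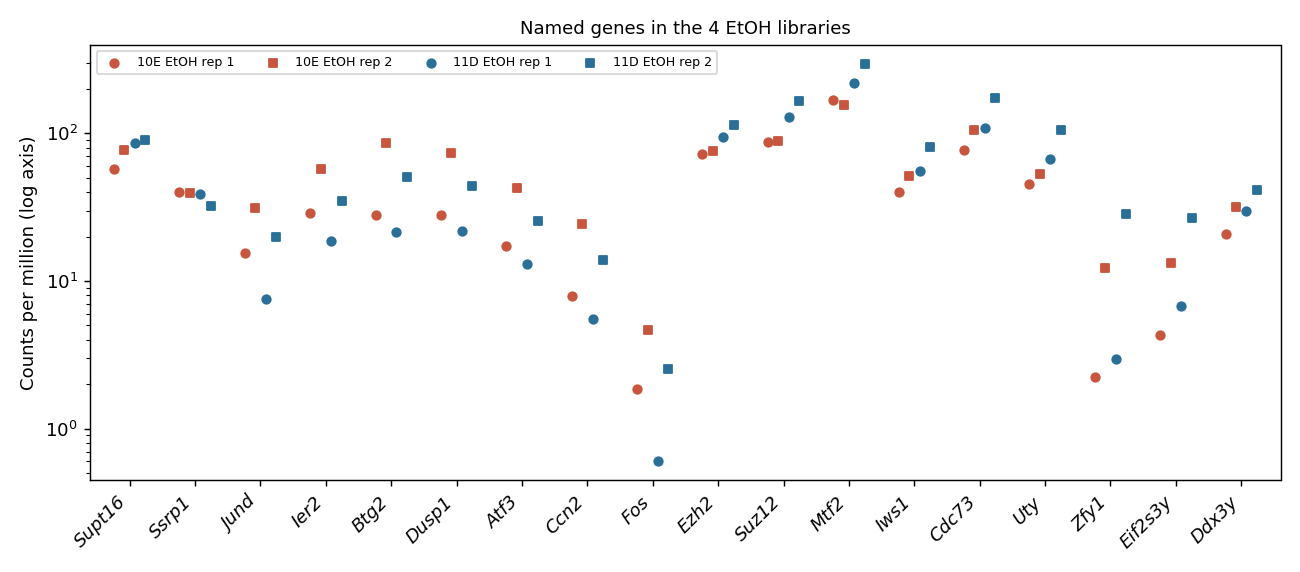
CPM (log axis) of 18 named genes in the 4 EtOH libraries, 1 point per library, with 10E in red and 11D in blue, circles for replicate 1 and squares for replicate 2. The PRC2 genes separate by line, with 10E below 11D, and the immediate early genes separate more by replicate number.

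Very long neuronal genes were lower in 10E where called, with 9 of 39 tested (23.1%) and 0 higher. The share is close to the 25.7% of the longest group of all genes. Immp2l, a mitochondrial peptidase gene of 932 kb, had 56.2 and 105 CPM in 10E and 65.2 and 230 CPM in 11D (-0.71, FDR 0.000109). Dmd, the dystrophin gene of 2257 kb, had 54.7 and 82.7 CPM against 65.6 and 152 CPM (-0.59, FDR 0.00116). In both genes replicate 2 was above replicate 1 in each line, and the lines overlapped. With gene length offsets 5 of the 39 were called lower and 0 higher, against 6.88% and 5.2% of all genes. Immp2l (FDR 0.00264) and Dmd (FDR 0.0294) stayed called lower there. Imprinted genes gave 5 calls of 33 tested (15.2%), all lower and all over 40 kb long. All genes gave 8.57%, and the 2 longest length groups 12.9% and 25.7%. The 5 were Copg2, Ube3a, Zdbf2, Sgce and Smoc1. With gene length offsets Copg2, Ube3a, Zdbf2 and Sgce stayed called lower, with FDRs of 0.00109 to 0.0172, and Smoc1 did not (FDR 0.404). Smoc1 was 0.04 in replicate 1 and -0.81 in replicate 2. Meg3, Rian and Plagl1 were not called between the line names, with FDRs of 0.0985, 0.225 and 0.337.

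Both sex chromosomes had medians below 0, with most of their genes not called. Of 7 tested Y-linked genes on the list, 4 were called lower (57.1%, against 8.57% of all genes) and 0 higher (against 2.82%). Uty, a histone demethylase gene (Y, 1096861 to 1245759), had 45.7 and 52.9 CPM in 10E and 67.2 and 105 CPM in 11D (-0.79 ± 0.14, FDR 7.95e-06). Zfy1, a zinc finger gene, had 2.25 and 12.2 CPM against 2.99 and 28.3 CPM (-0.99, FDR 0.000762). Eif2s3y, a translation factor gene, had 4.34 and 13.3 CPM against 6.75 and 26.7 CPM (-0.87, FDR 0.00105). Uty did not overlap between the lines, while Zfy1 and Eif2s3y were higher in both libraries of replicate 2. Ddx3y, an RNA helicase gene, was called with -0.46. Kdm5d had 0 and 0.917 CPM against 0 and 1.73 CPM and was not called, and neither were Usp9y and Uba1y. These genes have close relatives on the X chromosome or on the Y, so reads shared between copies are uncertain. On the X chromosome 86 of 495 tested genes were called lower (17.4%, against 8.57% of all genes) and 3 higher (0.606%, against 2.82%). The X chromosome had a median of -0.20 over these genes. Its median was -0.17 in replicate 1, -0.19 in replicate 2 and -0.19 with gene length offsets. It was 0.038 in the IAA libraries. The 9 tested genes of the Y chromosome had a median of -0.46, which was -0.14 in replicate 1 and -0.66 in replicate 2. It was -0.84 in the IAA libraries. For 6 Y genes the median deviation by library was taken as for chromosome 8. After EtOH it was -0.48 and 0.58 in 10E replicates 1 and 2, and 0.04 and 0.87 in 11D. After IAA it was -1.04 and -0.46 in 10E and 0.45 and 0.05 in 11D. The Y chromosome thus also divided by replicate number after EtOH and by line after IAA. Autosomal medians ran from -0.09 on chromosome 13 to 0.14 on chromosome 7.

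Called genes also lay side by side. There were 47 runs of 3 or more neighbouring tested genes called in 1 direction, holding 147 genes, and 44 of the runs were lower in 10E. Of the 1912 calls over all genes, 1439 were lower, and 25.7% of the longest length group were called lower. How many runs those shares alone would give was not tested, and runs were not sought with gene length offsets. The longest, on chromosome 18, held Thoc1, Usp14, Rock1, Greb1l and Esco1. Usp14, a proteasome-bound deubiquitinase gene, had 70.1 and 69.7 CPM in 10E and 101 and 97.4 CPM in 11D (-0.52, FDR 0.00550). Rock1, a kinase of the actin skeleton, had 37.8 and 45.2 CPM against 53.8 and 95.6 CPM (-0.82, FDR 4.22e-06). Both genes separated the lines, as did 32.8% of all genes tested. Other runs included Acvr2a, Orc4, Mbd5 and Epc2 on chromosome 2 (48814109 to 49551948), and Efna5, Fbxl17, Fer and Pja2 on chromosome 17 (62604184 to 64331916). With gene length offsets Efna5 was not called (FDR 0.201) and Acvr2a was (FDR 0.01).

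The line difference after EtOH was set beside that after IAA, in libraries that share none. After IAA, with the same block, 311 of 14683 genes were called (2.12%), 174 higher (1.19%) and 137 lower (0.933%). Their median log2 differences were 1.70 and -1.78, against 0.54 and -0.56 for the EtOH calls. Of the genes called higher in 10E after EtOH and tested after IAA, 4 of 461 (0.868%) were called higher there. Of those called lower, 9 of 1415 (0.636%) were called lower there. Calls in the opposite direction after IAA were 8 of the 461 and 16 of the 1415. From the other side, 2.44% of the higher and 6.62% of the lower IAA calls tested after EtOH were called in the same direction, and 16 of 164 and 8 of 136 in the opposite one. EtOH calls had median differences of the opposite sign after IAA, -0.22 for those higher in 10E and 0.20 for those lower. A test of the difference between the treatments over all 8 libraries called 2 of 16517 genes, Sox5 and Slc7a7. Sox5, a transcription factor gene of neural and cartilage development, had 2.94 and 4.31 CPM in 10E and 4.81 and 10.97 CPM in 11D after EtOH. After IAA it had 14.7 and 24.1 CPM in 10E and 3.83 and 4.91 CPM in 11D. Slc7a7, an amino acid transporter gene, had 39.3 and 34.2 CPM against 36.6 and 47.4 CPM after EtOH, and 107 and 116 CPM against 21.4 and 26.4 CPM after IAA.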

How the data were processed

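TT-seq counts of read pairs per gene were analysed as the authors deposited them, in a table of 55291 names by 8 washout libraries. Per the file headers, featureCounts 2.0.1 counted pairs whose ends both mapped, reverse-stranded, over whole genes joined by name, and the header shows no option that counts multi-mapping pairs. STAR, deepTools and the mm10 build are named in the submitters' processing notes. Gene coordinates and lengths were those deposited with the counts. GENCODE M21 matched 53292 names (96.4%) and supplied exonic shares for the 52826 of them with the same single-locus coordinates.

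The 4 EtOH libraries were fitted with edgeR 4.0.16 in R 4.3.3 (quasi-likelihood, robust, two-sided) with filterByExpr, TMM scaling and the replicate number as a block. The 4 IAA libraries were fitted alike, and the interaction over all 8. DESeq2 1.42.0, other scalings and filters, offsets for gene length (lowess span 0.3) and leaving out libraries were alternatives. The test was tried on simulated counts. CPM uses the TMM scale over 8 libraries, and pair differences use log2 CPM with a prior count of 1.

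Members and gene lists were chosen with earlier results of these data known, and each list was described by counts and medians. Named genes had an FDR under 0.05, a mean of at least 1 CPM, 1 sign in both pairs and a symbol that is not a predicted or clone name. The 15 with the largest differences in each direction were taken. So were called list members (up to 6 a list), FACT genes, 6 pluripotency factors, Y-linked genes and runs of 3 or more neighbours. Jarid2, Cbx2, Eed, Klf10, Srf, Spry4, Sox2ot, Slc7a7 and the genes of the library check (Meg3, Rian, Mirg, Plagl1) were named after their values were seen. Some genes that the rule or a list takes in are not reported here.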

Additional observations from a re-analysis of the deposited data

Results flagged for a closer look

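Nox1 and Tarm1 each had 1 of the 4 EtOH libraries far from the others, 11D replicate 2. The gap to the nearest library was 0.946 of the range for Nox1 and 0.887 for Tarm1, above Dixon's limit for 4 values. Chance gives about 1 such gene in 20, and 32 sets of 4 values were examined. The line difference of Sox5 differed between EtOH and IAA by -3.18 on the log2 scale (edgeR, FDR 0.0468). That of Slc7a7 differed by -2.41 (FDR 0.0468), with the line difference near 0 after EtOH (-0.21) and 2.22 after IAA.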

How the results depend on the processing

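The EtOH calls depended on the replicate block, whose numbers the labels do not explain. The differences between replicates 1 and 2 correlated at 0.736 across genes between the lines after EtOH and at -0.191 after IAA. Genes higher and lower in 10E numbered 473 and 1439 with the block, and 0 and 0 without it, over all 8 libraries with it, and over all 8 with it within treatments. They numbered 26 and 545 with DESeq2, over the 7354 genes it gave an adjusted p, and 189 and 618 at 1.5-fold. The higher calls alone moved to 874 with gene length offsets, 315 with RLE scaling, 152 without a filter and 305 at a mean CPM of at least 1. Leaving out 1 library from the fit over 8 gave 0 to 1 higher and 0 to 20 lower, the 20 without 11D replicate 1. There the lone sample is assumed to vary like the other groups. Without 11D replicate 2, Olfr837, Sgcz, Rsf1os1 and Zfy1 reversed to 0.11, 1.25, 0.63 and 0.71, and without 10E replicate 2 Cebpa reversed to -0.14. After IAA, 174 and 137 became 334 and 288 without the block, 109 and 67 with DESeq2, 446 and 574 with gene length offsets, 96 higher over 8 libraries, and 2 to 189 and 0 to 632 with 1 library left out, the lowest without 10E replicate 2, 68 lower without 10E replicate 1 and the 632 without 11D replicate 2. The interaction gave 0 higher and 2 lower, 0 lower without the block, and 71 and 136 with DESeq2. The median of chromosome X was -0.20, -0.17 in replicate 1 and 0.038 after IAA, and that of Y -0.46, -0.14 in replicate 1, -0.66 in replicate 2 and -0.84 after IAA. The cause of these shifts was not tested.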
